A study of Homo sapiens with 2 samples.

Results

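E2F1 binding was examined at the promoters of 8 genes, listed as kinetochore genes or as mitotic promoters. The genes are SPC25, SPC24, NUF2, NDC80, CENPA, CENPF, TROAP and IQGAP3. Each gene was represented by the E2F1 peaks that overlapped the 2 kb either side of its hg19 transcription start, and 8 peaks were found this way among 28734 in the list. The genes were selected on their role in mitosis and with their E2F1 peak scores in this same list known, among them 3 of its 10 highest peaks, so scores and ranks below describe them and test nothing. The peaks come from 1 chromatin immunoprecipitation sequencing (ChIP-seq) library of LNCaP-abl, a human prostate cancer line derived from LNCaP that grows without androgen and is used to model castration-resistant tumours. The cells (passages 61 to 64) were kept in medium with 10% charcoal-stripped serum, and were deprived of androgen for 3 days, and their chromatin was precipitated with a pair of E2F1 antibodies. An input of the same cells, made without antibody, is the other sample, and no signal of it was analysed here. No value has a replicate, and read depth is unknown because the list holds no read counts.

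E2F1 is a transcription factor of the E2F family, which is best known for switching on genes of DNA replication as cells leave quiescence or enter S phase. Genes of mitosis are expressed later in the cycle. Many of them carry a cell cycle genes homology region (CHR) near their start, through which the DREAM complex, which contains other E2F proteins, represses them, and through which B-MYB and FOXM1 activate them. Kinetochores are the protein assemblies that join chromosomes to spindle microtubules. The Ndc80 complex, made of NDC80, NUF2, SPC24 and SPC25, is the part that grips the microtubule. CENPA is the histone H3 variant that marks where a kinetochore forms. CENPF is a large coiled-coil protein that gathers at the outer kinetochore late in the cycle. TROAP is a spindle-associated protein, and IQGAP3 belongs to a family of scaffold proteins that bind small GTPases.

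The promoter sequences under these peaks are shown because they were searched for the letters that E2F and CHR-binding factors are known to read. The RefSeq promoter table, of build GRCh38.p14, held 7 of the 8 genes. The stretches below run 5′ to 3′ from 100 bases before to 30 bases after the RefSeq gene start, in the direction of the gene. Capitals mark CHR-type matches (TTTGAA or TTCGAA) and CCAAT boxes, on either strand, so that a match on the opposite strand appears as TTCAAA or ATTGG.
SPC25: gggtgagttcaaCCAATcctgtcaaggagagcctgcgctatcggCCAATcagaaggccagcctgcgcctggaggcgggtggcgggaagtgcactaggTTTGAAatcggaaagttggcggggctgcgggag
SPC24: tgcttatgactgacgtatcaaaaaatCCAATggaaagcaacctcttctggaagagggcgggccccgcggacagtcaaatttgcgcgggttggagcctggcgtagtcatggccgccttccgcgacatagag
NUF2: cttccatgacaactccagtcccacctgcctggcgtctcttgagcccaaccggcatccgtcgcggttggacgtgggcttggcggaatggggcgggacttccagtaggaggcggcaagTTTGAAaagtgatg
NDC80: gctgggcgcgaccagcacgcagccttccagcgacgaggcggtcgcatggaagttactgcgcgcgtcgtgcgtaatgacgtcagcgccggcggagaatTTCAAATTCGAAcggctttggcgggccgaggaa
CENPA: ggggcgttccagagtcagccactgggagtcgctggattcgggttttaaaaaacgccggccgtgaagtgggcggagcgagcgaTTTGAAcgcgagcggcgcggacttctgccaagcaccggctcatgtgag
CENPF: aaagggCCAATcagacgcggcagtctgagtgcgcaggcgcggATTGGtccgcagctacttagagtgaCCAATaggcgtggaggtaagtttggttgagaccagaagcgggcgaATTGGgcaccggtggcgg
IQGAP3: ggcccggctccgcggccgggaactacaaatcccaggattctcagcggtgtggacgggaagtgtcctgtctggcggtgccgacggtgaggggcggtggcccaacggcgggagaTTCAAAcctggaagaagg
These stretches lie at chr2:168890401-168890530 (minus strand), chr19:11155753-11155882 (minus strand), chr1:163321854-163321983 (plus strand), chr18:2571457-2571586 (plus strand), chr2:26785956-26786085 (plus strand), chr1:214603095-214603224 (plus strand) and chr1:156572536-156572665 (minus strand), in the order shown and on GRCh38.p14. Another stretch of CENPA, from position -242 to -183 at chr2:26785814-26785873 (plus strand), holds the E2F-type match of these promoters and is shown for that reason, with that match and a CCAAT box in capitals.
CENPA: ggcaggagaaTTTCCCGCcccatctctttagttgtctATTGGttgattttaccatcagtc
Peak positions below are on hg19, and the RefSeq starts can differ by some bases from the starts used to find peaks.

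All 8 starts had exactly 1 peak within 2 kb, and all 8 starts lay inside their peak. As background, 3.82% of the 772755 windows of 4001 bp tiled over chromosomes 1 to 22, X and Y overlapped a peak (exact Clopper-Pearson 95% interval 3.77 to 3.86%, counting error only). These windows were placed without regard to transcription starts. The share over the starts of other genes was not computed for want of hg19 starts, and 3.82% does not stand for it. All 8 peaks were in the top 10% of the list by score, a class that holds 10.0% of peaks by construction. In the top 1%, 0.999% of the list, were 7 of the 8, with CENPA outside it. These shares follow from how the genes were chosen. The lowest score in the top 1% was 229 and the lowest in the top 10% was 110. The score is the authors' own value for a peak on an unstated scale, so it is used here to order peaks, and the size of a difference in score is not read.

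The subunits of the Ndc80 complex each had an E2F1 peak among the 52 highest, which describes genes chosen with their scores known. SPC25 had the highest, a 739 bp peak on chromosome 2 from 169746590 to 169747328 (hg19, 1-based) that scored 315. It ranked 3 in the whole list and 1 of 2020 peaks on its chromosome. Its percentile, the share of all peaks with a score at or below it, was 99.993. NUF2 followed with a 751 bp peak on chromosome 1 from 163291375 to 163292125, whose score of 298 ranked 13 (percentile 99.958). NDC80, which names the complex, had a 715 bp peak on chromosome 18 from 2571189 to 2571903, scoring 284 at rank 36 (percentile 99.878), the highest of the 430 peaks on chromosome 18. SPC24, the direct partner of SPC25, had a 720 bp peak on chromosome 19 from 11266139 to 11266858, scoring 278 at rank 52 (percentile 99.823). TROAP and IQGAP3, at ranks 9 and 10, lay between SPC25 and NUF2, so the 4 subunits were not set apart from the other members. Without replicates it cannot be said whether their order would recur.

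The centromere proteins had lower peaks than the Ndc80 subunits. CENPF had an 803 bp peak on chromosome 1 from 214776146 to 214776948 that scored 261, at rank 105 and percentile 99.638. CENPA had the lowest score of the 8, 208, with 467 peaks above it (percentile 98.375). Its peak on chromosome 2 from 27008448 to 27009441 was also the widest of the 8 at 994 bp. SPC25 and CENPA share chromosome 2, where they ranked 1 and 27 of 2020 peaks.

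TROAP and IQGAP3 had neighbouring ranks. TROAP had an 881 bp peak on chromosome 12 from 49716456 to 49717336 that scored 303.4, at rank 9 and percentile 99.972, and no peak of that chromosome scored higher. IQGAP3 had a 728 bp peak on chromosome 1 from 156542005 to 156542732 that scored 303.1, at rank 10 and percentile 99.969. The next peak down the list, ranked 11 and not at any of the 8 genes, scored 300.5. NUF2 stood only 2 ranks further down. On chromosome 1, which has 2962 peaks, IQGAP3, NUF2 and CENPF ranked 2, 3 and 16.

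**Figure D1:**
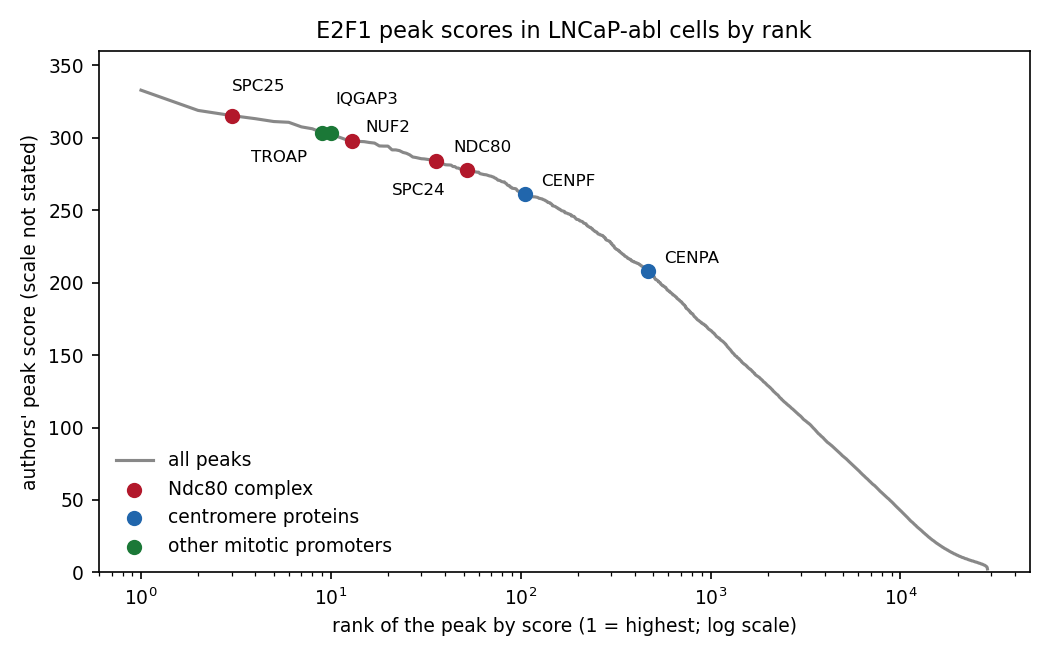
Authors' peak score (y axis, scale not stated) against rank by score (x axis, log scale) for all 28734 E2F1 peaks (grey line), with the 8 genes as points coloured by group. The points run from SPC25 at rank 3 to CENPA at rank 468, with the Ndc80 subunits between ranks 3 and 52.

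The peaks sat almost centrally on the transcription starts. The distance from the start to the middle of the peak had a median of 27.25 bp and ran from 14.5 bp at SPC24 to 75.0 bp at TROAP. In the direction of the gene and from the hg19 starts used, 5 of the centres lay downstream of the start and 3 upstream. Another annotated start of the same gene can lie some bases away and could change these sides, so they are not read further. SPC25 and SPC24 were centred 15.0 and 14.5 bp upstream, and CENPF 15.0 bp downstream. NUF2, IQGAP3, NDC80 and CENPA were centred 27.0, 27.5, 36.0 and 62.5 bp downstream. TROAP, taken as a plus-strand gene, was centred furthest upstream at 75.0 bp, and its peak reached 515 bp upstream and 365 bp downstream. CENPA reached furthest downstream, at 559 bp, with 434 bp upstream. Over the 8 genes the upstream reach was between 321 and 515 bp and the downstream reach between 345 and 559 bp. Every peak therefore covered more than the 250 bases before and 50 bases after the start to which it was assigned. No member was near the limit of the window, and the nearest peak outside any window was 10.4 kb from the NDC80 peak.

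**Figure D2:**
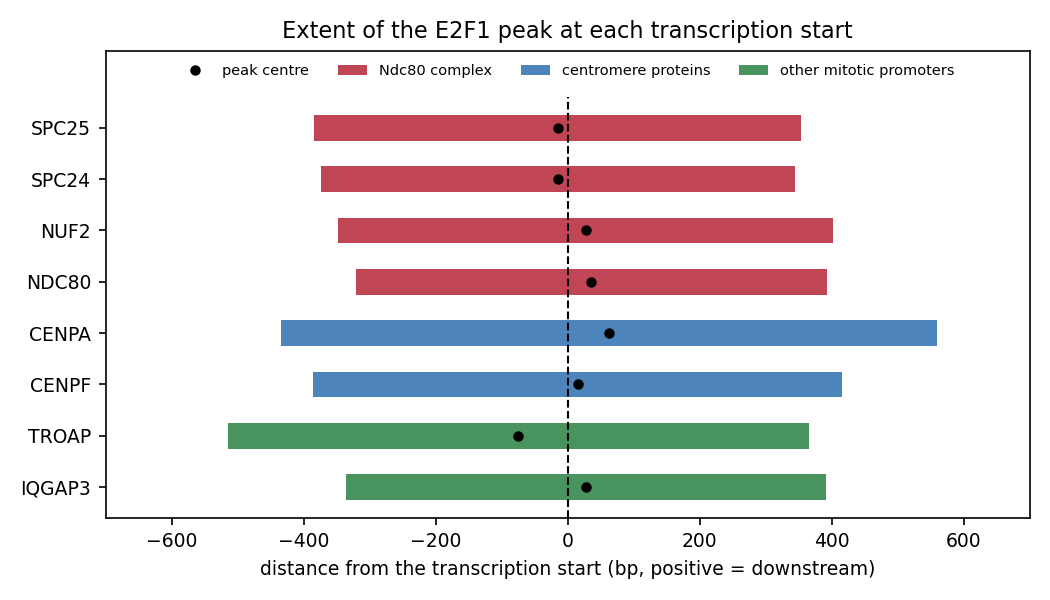
Extent of each E2F1 peak in bp from the hg19 transcription start (dashed line, positive values downstream), with bars for the peak from edge to edge, black points for its middle, and colours for the gene group. All 8 bars span the start, and the middles lie between 75.0 bp upstream at TROAP and 62.5 bp downstream at CENPA.

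Some of the starts lie next to the start of another gene, so the peak there may belong to either gene. In the RefSeq promoter table NDC80 is head to head with METTL4, a gene for a methyltransferase, with starts less than 1 kb apart. NUF2 is likewise head to head with RGS5, a regulator of G-protein signalling, and with a long non-coding RNA, LOC127814295. SPC25 is head to head with the long non-coding RNA LOC124907904. For SPC24, CENPA, CENPF and IQGAP3 the table held no other start within 1 kb. TROAP is absent from the table, so its neighbours could not be looked up. The table is not complete, and which start the bound E2F1 acts on was not tested.

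The peaks were high in score for their width, a description that leans on the scores by which they were chosen. Their widths had a median of 745 bp, against 418 bp in the rest of the nuclear peaks (quartiles 286 and 679 bp) and 782 bp in the other 280 peaks of the top 1% (quartiles 706.5 and 883 bp). By width alone the 8 peaks stood at percentiles from 77.7 for NDC80 to 93.0 for CENPA. Among the 2573 peaks within 10% of its width, TROAP had the highest score. SPC25 was exceeded by 1 of 2990 such peaks, IQGAP3 by 5 of 3052, NUF2 by 6 of 3007, NDC80 by 19 of 3100 and SPC24 by 25 of 3101. CENPF was exceeded by 48 of 2895 and CENPA by 84 of 1989. Against the 100 peaks nearest in rank, whose median widths were between 757.5 and 789 bp, CENPA, TROAP and CENPF were wider and the other 5 narrower. Score and width come from the same peak calls and are not independent.

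**Figure D3:**
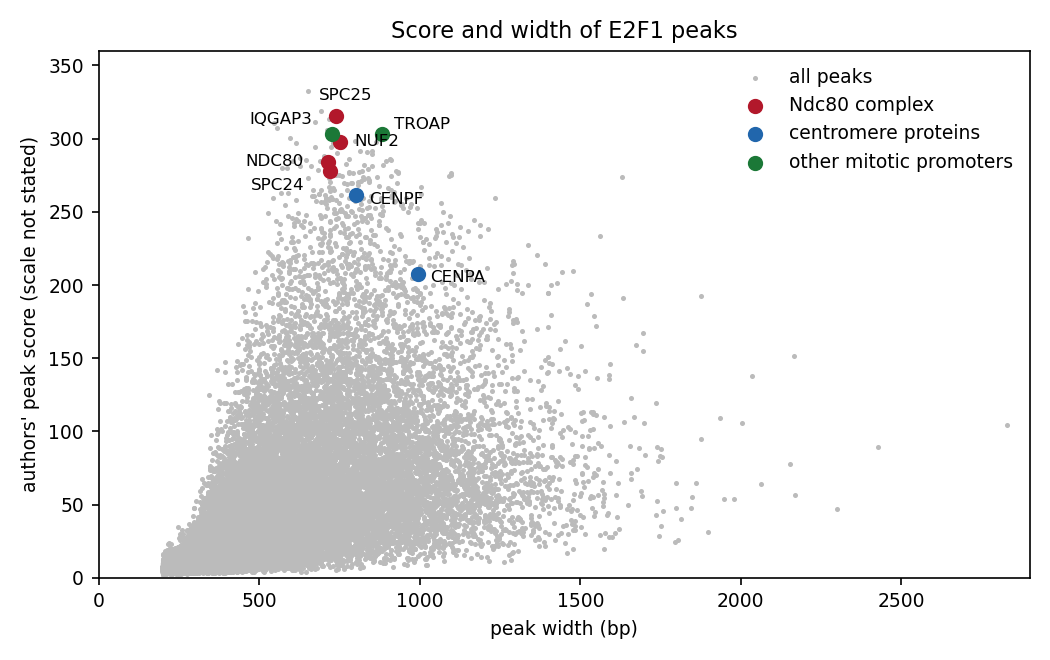
Authors' peak score (y axis, scale not stated) against peak width in bp (x axis) for all E2F1 peaks (grey) and the 8 genes (coloured by group). SPC25, IQGAP3, NUF2, NDC80 and SPC24 form a tight cloud between 715 and 751 bp near the upper edge, while CENPA, at 994 bp and a score of 208, lies apart.

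None of the 8 peaks had another peak within 10 kb, whereas 39.5% of nuclear peaks had one. In the other 280 peaks of the top 1%, 72 (25.7%) had one. With 8 genes this is a description, and the distance was chosen after the values were seen. The gap to the nearest other peak had a median of 17.9 kb, against 16.1 kb in the rest of the nuclear peaks (quartiles 4.20 and 43.5 kb) and 22.7 kb in the rest of the top 1% (quartiles 9.59 and 48.9 kb). The gaps were 10.4 kb at NDC80, 12.9 kb at CENPA, 13.3 kb at TROAP, 17.4 kb at SPC24, 18.5 kb at IQGAP3, 31.1 kb at NUF2, 50.2 kb at CENPF and 73.5 kb at SPC25. The median gap of the 8 thus lay inside the quartiles of both sets.

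The nearest neighbours covered a wide range of scores. The nearest peak scored 4.65 at NUF2, 4.72 at SPC25, 7.67 at CENPA, 8.37 at NDC80 and 10.3 at CENPF, all below the list's median of 23.5, as are 50% of peaks by construction. It scored 42.7 at IQGAP3, 76.7 at SPC24 and 105 at TROAP, all above that median. Within 50 kb of the starts there were 16 other peaks in all, of which 9 were in the top 50% of the list and 3 in the top 10%. These 3 were at TROAP, with scores of 172 and 168 at 24.7 and 43.8 kb downstream, and at SPC24, with a score of 115 at 41.9 kb upstream. No other peak lay within 50 kb of SPC25 or CENPF. A median of 1.5 other peaks lay within 50 kb, against 2 in the rest of the nuclear peaks and 1 in the rest of the top 1%.

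**Figure D4:**
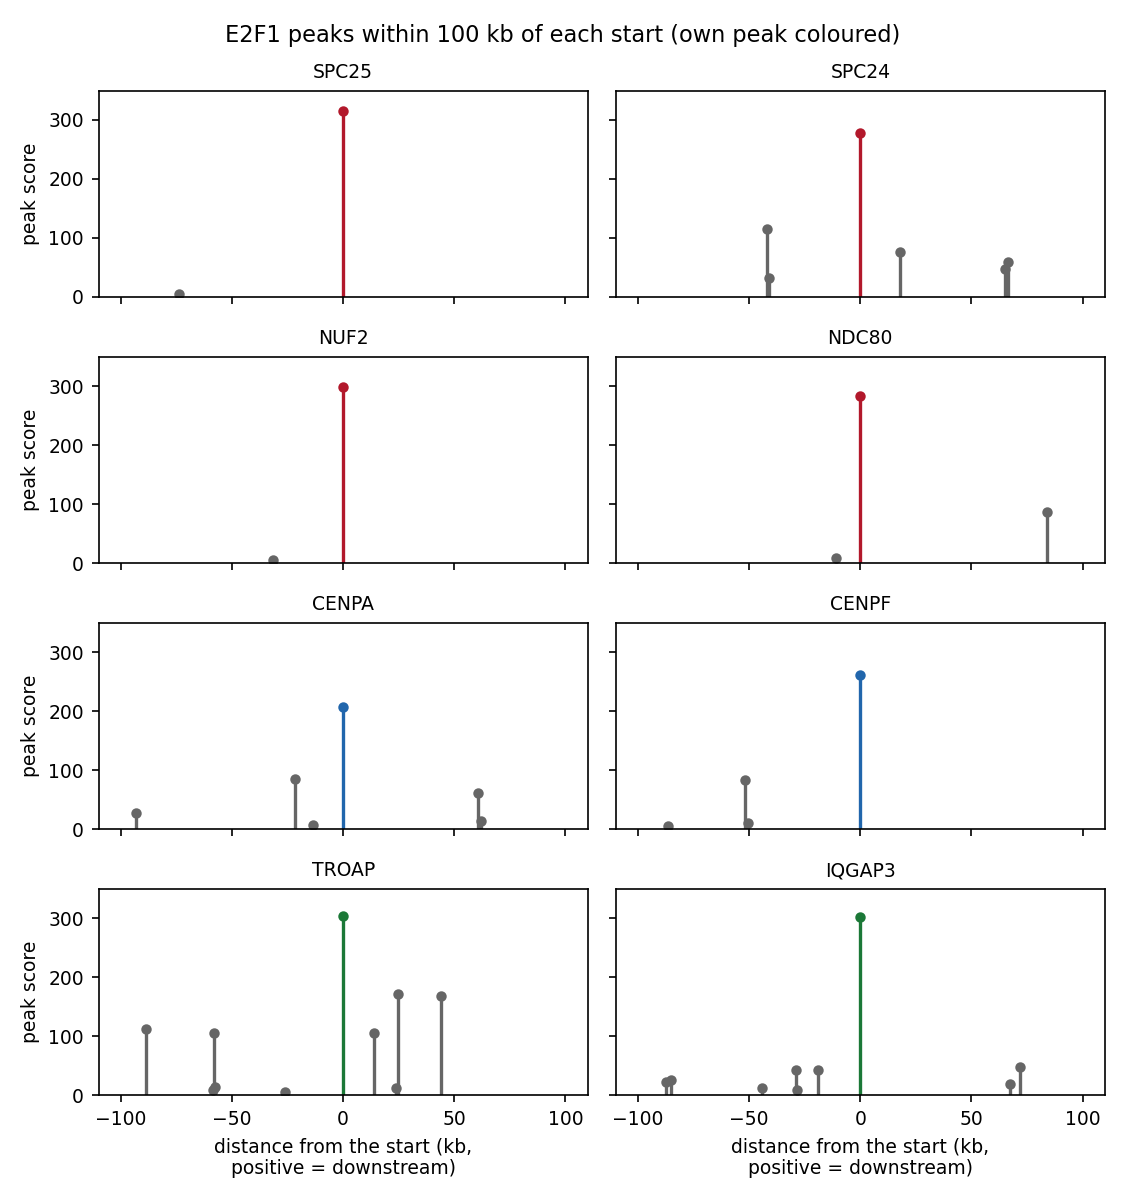
E2F1 peaks within 100 kb of each start, by distance in kb (x axis, positive values downstream) and authors' score (y axis, scale not stated), with the gene's own peak coloured and other peaks grey. The own peak is the highest in all 8 panels, with 1 other peak at SPC25 and NUF2 and 9 at TROAP.

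Over a wider stretch the surroundings of the 8 genes ranged from sparse to dense. Within 1 Mb of the start there were 11 other peaks at NDC80, 12 at NUF2, 14 at CENPF and 22 at SPC25. There were 57 at CENPA, 57 at TROAP, 59 at IQGAP3 and 74 at SPC24. The rest of the nuclear peaks had a median of 29 (quartiles 18 and 46), and the rest of the top 1% had 31.5 (quartiles 18 and 49). Against either set, 3 of the genes lay below the lower quartile, 4 above the upper quartile and SPC25 between them. With 8 genes this is a description. High peaks occurred in sparse and in dense surroundings. NUF2, with a score of 298, had no other peak above 60.2 within 1 Mb, and NDC80, with 284, none above 86.7. TROAP, with 303, had one of 297 in the same span. The nearest peak on the same chromosome with an equal or higher score was 1.99 Mb away at CENPA, 2.93 Mb at CENPF, 6.75 Mb at NUF2, 22.2 Mb at SPC24 and 110 Mb at IQGAP3, and there was none for SPC25, NDC80 and TROAP.

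The promoter sequences mostly held a CHR-type match beside the start. The rule for the genes did not use sequence, but mitotic genes are known for such elements. A CHR-type match was present in 6 of the 7 promoters of 300 bases, against 16.4% of all 35116 promoters of the table. Of 40 other kinetochore genes listed, 30 had promoters in the table, 36 in all, which is an incomplete set. A CHR-type match was present in 17 of these 36 (47.2%), so it is not particular to the genes examined here. In NDC80 there were 2, one across the start from position -3 to 3 and the next from 4 to 9, counted from 1 at the first base of the gene. SPC25 had one from -3 to 3 and another from -247 to -242. It lay from -18 to -13 in CENPA, from 13 to 18 on the opposite strand in IQGAP3, from 17 to 22 in NUF2 and from 41 to 46 in CENPF, beyond the stretch shown. SPC24 held none in this window.

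The E2F-type letters were searched in the same promoters. The match, TTTCCCGC, TTTCGCGC, TTTGCCGC or TTTGGCGC on either strand, was present in 1 of the 7 promoters, against 3.31% of all promoters of the same length. That promoter was CENPA, the gene with the lowest E2F1 score of the 8, where it lay from -232 to -225 and overlapped a GC box. With the first T left out, NUF2 and SPC25 also held a match, which makes 3 of 7, against 13.0% of all promoters. The absence of these letters says nothing about whether E2F1 binds there. CCAAT boxes, known as sites of the factor NF-Y, were present in 4 of 7 (SPC25, SPC24, CENPA and CENPF), against 34.6% of all promoters, and CENPF had 4 of them. The GC box GGGCGG was present in 4 of 7 (SPC24, NUF2, CENPA and IQGAP3), against 45.0%. All 7 genes code for proteins, and over the 22199 promoters of protein-coding genes the shares were 4.10% for the E2F-type match, 13.7% for the CHR-type match, 34.7% for CCAAT and 56.3% for the GC box. Against that set the GC box was about as frequent in the 7 promoters as elsewhere. In the 36 promoters of other kinetochore genes the shares were 11.1% for the E2F-type match, 63.9% for CCAAT and 66.7% for the GC box. Matches are letters in a window and were not tested as binding sites.

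**Figure D5:**
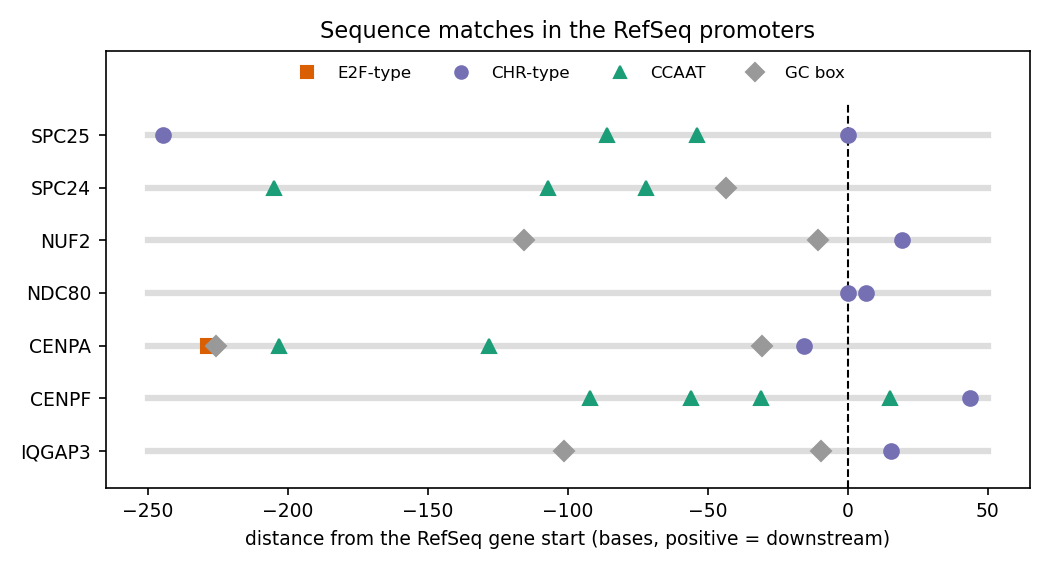
Position of sequence matches in the RefSeq promoters of 7 genes, in bases from the RefSeq gene start (dashed line, positive values downstream); squares are E2F-type, circles CHR-type, triangles CCAAT and diamonds GC box matches. CHR-type matches gather from -18 to 46 in 6 genes, with another at -247 in SPC25, while the E2F-type match is in CENPA.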

How the data were processed

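The genome build was hg19 and the tools named were MACS2 2.0.9, Bowtie and CASAVA 1.6.0, per the submitters' processing notes. Tool settings, and whether the input was a control, were not given in the sources used here. For each peak the deposited list gives chromosome, start, end, name and the authors' score, without read counts, summits or a header, so the score was used to rank peaks within the list. Starts were taken as 0-based and are printed 1-based.

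Peaks that overlapped 2 kb either side of the 8 given starts by at least 1 bp were taken, with scipy 1.17.1, numpy 2.4.6 and pandas 2.3.3 under Python 3.11.15; figures used matplotlib 3.10.9. The window, percentile, spacing and motif steps were tested on simulated data. Members, lists and distances were chosen with earlier results of these data known. The rule for genes named with a peak value was the 8 members, plus genes with a start within 1 kb of theirs. SKA1 is named for its promoter sequence only. No test was run, since the score chose the members and the series has 1 library with peaks. The sequences are RefSeq, GRCh38.p14, and no coordinates were converted. Strand came from that table, and for TROAP from general knowledge. Of 40 other kinetochore genes listed for comparison, 30 had a promoter in the table, under the 80% needed for a check. Their promoter shares therefore describe an incomplete set and serve as no check. Their peaks were not analysed here for want of hg19 starts.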

Additional observations from a re-analysis of the deposited data

How the results depend on the processing

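All 8 genes kept a peak with windows of 1 or 5 kb, with the peak centre inside the window, and with the top 50% or the top 10% of peaks. The median percentile of the 8 peaks, 99.918, was the same among nuclear peaks, 99.949 within chromosomes, 99.836 in the top 50%, 99.594 among peaks of similar width and 80.0 when ranked by width. Of 40 such values for single genes, 12 stayed inside the exact Clopper-Pearson interval of the main percentile and 28 moved. That interval covers counting error only and does not say whether a rank would recur in another library. Ranking by width gives another quantity, and percentiles in the top 50% are lower by construction. The counts of 12 and 28 therefore do not measure how stable the ranks are. The median distance from the start was 27.25 bp to the peak centre and 351 bp to the nearest edge, another quantity by construction. The median number of other peaks, 1.5 within 50 kb, was 4 within 100 kb, 17.5 within 500 kb and 0.5 within 50 kb in the top 50%, as wider or stricter sets give by construction. It was 2 without CENPA and SPC25, an alternative chosen after seeing the data. Of 7 promoters, 1 held the 8-letter E2F-type match, 3 the 7-letter one and 0 the 8-letter one in the 200 bases nearest the start. With a last letter of C or G, also chosen after seeing the data, 2 did (CENPA and NDC80), against 6.19% of all promoters. No paired analysis was possible because peaks of a single library were at hand. Leaving out a replicate was not possible for the same reason, and what depth limits is unknown without read counts.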

Other observations

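In NUF2, the CHR-type match is preceded by GGCGG at a spacing of 4 bases (GGCGG, any 4 bases, then TTTGAA, searched on both strands), the arrangement known as a tandem of a cell cycle-dependent element and a CHR. This pattern was present in 18 of 35116 RefSeq promoters, or 0.0513%, and in 1 of the 7 promoters examined here. Of the 30 other kinetochore genes with a promoter in the table, 1 held the pattern, SKA1. The pattern was searched for after the sequences had been seen, and its relation to kinetochore genes or to E2F1 binding was not tested.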
